A study of Homo sapiens with 38 samples.

Results

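The comparison is between RNA pulled down by rPAL and the total RNA of KG1a cells, a human acute myeloid leukaemia cell line. Libraries were chosen by their titles, 4 of total RNA and 4 of rPAL-enriched RNA, which is 8 of the 38 libraries of the series. The series covers 2 leukaemia lines and the vesicles they release, and only the KG1a cells are described here. Both groups used wild-type KG1a cells in RPMI-1640 with glutamine, 10% FBS and penicillin-streptomycin, and no drug or genetic change was applied. The total RNA is the input against which each rPAL library was set. The labels do not state that the 4 replicates came from different cultures; a p-value here reflects the variation among these libraries, which may be technical.

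Sialic acids are sugars that cap many glycans. In rPAL, periodate oxidises the diol of a sialic acid to an aldehyde, the aldehyde is ligated to a biotin reagent, and the biotin is pulled down, so that RNA linked to sialylated glycans (sialoglycoRNA) is enriched. Small noncoding RNAs such as tRNA, Y RNA, snRNA, snoRNA and miRNA have been described as its main carriers in cultured cells. The libraries were made with a small RNA kit and sized on a gel, so a long RNA is seen through short fragments or through the small RNA genes that lie inside it.

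Counts per library were 10611842 to 13799469 in total RNA and 10225549 to 15532758 in rPAL RNA. Features with at least 1 count numbered 25094 to 27120 in total RNA and 18640 to 22711 in rPAL RNA. A feature is a row of the deposited table, either an Ensembl gene or an RNAcentral entry, and each carries an RNA class. RNAcentral entries have no gene name here and are described by class, yet they held 83.9% of the counts of the 8 libraries. Of the 16 KG1a line markers, 11 had a count and 4 were tested (CD34, RUNX1, SPN and PTPRC). Of these 4, 0 were called, beside 18.8% of all features tested. CD34, the defining surface marker of primitive myeloid cells, lay at 1.18 to 4.77 CPM (counts scaled to a common library total) in total and 1.96 to 11.2 CPM in rPAL RNA. The summed level of the erythroid, liver and serum, lymphoid, muscle and epithelial lists was at most 0.756 CPM in total RNA and 2.36 CPM in rPAL RNA for any list, and 0 of their members were tested. In bulk RNA, fewer cells of a type and less RNA per cell cannot be told apart.

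The 4 rPAL libraries were not alike. Over 697 features of at least 50 CPM, Pearson's r of log2(CPM + 1) across features was 0.94 to 0.99 between total libraries. Among rPAL libraries it was 0.94 between replicates 1 and 4 and 0.96 between replicates 2 and 3, but 0.77 to 0.88 across these pairs. Against the total libraries, r was 0.41 to 0.48 for rPAL replicates 2 and 3, 0.11 to 0.21 for replicate 1 and -0.00 to 0.08 for replicate 4. These are descriptions across features, which are not independent, and the 8 libraries share 1 annotation. Replicates 1 and 4 thus lay farther from the total RNA than replicates 2 and 3 did. The labels give no batch or date that separates the pairs, and no averages of the pairs are compared here; values are given per library, and results that rest on a pair are given without it.

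**Figure D1:**
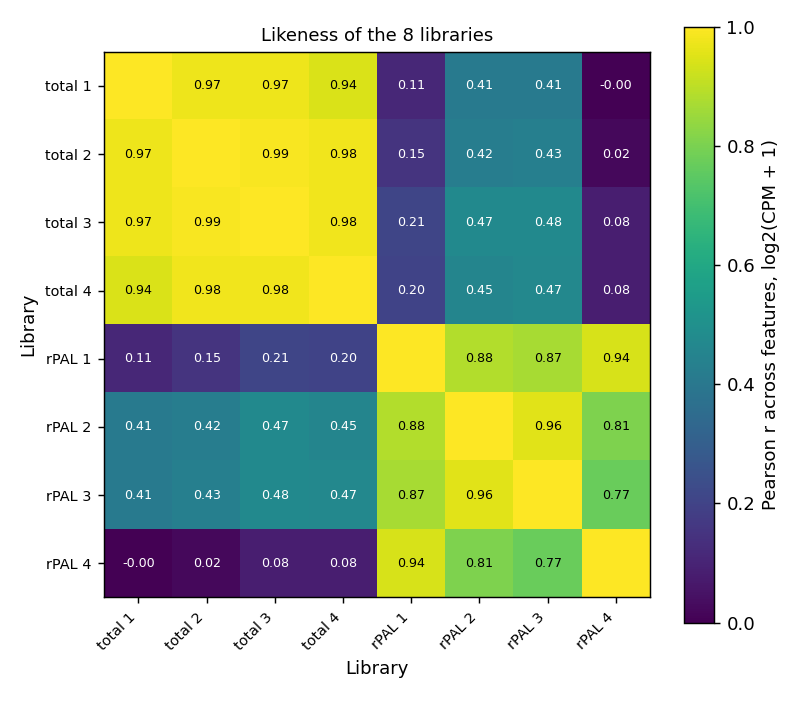
Pearson's r across 697 features between each pair of the 8 libraries (4 total, 4 rPAL; log2 of CPM plus 1, both axes list libraries). Total libraries form 1 block, and rPAL replicates 1 and 4 (0.94) and 2 and 3 (0.96) are more like each other than across the pairs (0.77 to 0.88).

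Which RNA classes the pull-down holds was asked first. Transfer RNA, the adaptor of translation, took 7.38%, 9.30%, 10.9% and 12.3% of counts in total replicates 1 to 4. In rPAL replicates 1 to 4 it took 72.9%, 38.7%, 39.6% and 77.0%. Every rPAL library lay above every total library, with replicates 1 and 4 near each other and far above replicates 2 and 3. Precursor miRNA entries, the hairpins from which miRNAs are cut, moved the other way, and their rPAL shares of 4.83%, 16.0%, 19.0% and 0.877% were lowest in the replicates with the most tRNA. Entries typed only as ncRNA were lower in the same pattern, going from 14.5%, 15.7%, 14.2% and 15.4% to 1.64%, 5.30%, 6.05% and 0.310%.

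Smaller classes were higher beside tRNA. Mitochondrial tRNA took 0.0357% to 0.0893% of counts in total RNA and 0.365%, 0.875%, 0.395% and 0.397% in rPAL RNA, a 7.54-fold higher mean. A single gene, MT-TV, made 14.0% to 29.2% of this class in total RNA and 84.1% to 84.7% in rPAL RNA. The class share without MT-TV was not tested. RNase P RNA, the catalytic RNA that trims the 5' end of tRNA precursors, took 0.00286% to 0.00704% in total and 0.228% to 0.370% in rPAL RNA. That class is 1 entry. Signal recognition particle RNA (7SL), which carries ribosomes to the endoplasmic reticulum, was 5.94-fold higher on average, at 0.0537%, 0.129%, 0.120% and 0.0768% in rPAL RNA. In each of these 3 classes all rPAL libraries exceeded all total libraries, and neither RNase P nor mitochondrial tRNA set replicates 1 and 4 apart from 2 and 3 in the way tRNA did. Small nucleolar RNA went from 1.76% to 2.26% of counts to 0.823% to 1.69%.

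By an exact two-sided permutation test over the 70 splits of 4 against 4 libraries, 9 of 18 classes reached p = 0.0286, the smallest this design allows. With Benjamini-Hochberg adjustment over the 18 classes each of these exact tests had p = 0.0571, so 0 of 18 classes passed 0.05. The 9 were tRNA, precursor miRNA, unspecified ncRNA, snoRNA, mitochondrial tRNA, RNase P RNA, 7SL RNA, processed pseudogenes (2.83-fold higher) and misc_RNA (1.72-fold higher). Mature miRNA took 10.1% ± 0.787 of total and 5.29% ± 3.35 of rPAL counts (SD, n = 4), with rPAL replicate 3 at 9.35% inside the total range of 9.01% to 10.9%. Shares sum to 100%, so a rise of tRNA lowers the sum of the other shares.

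**Figure D2:**
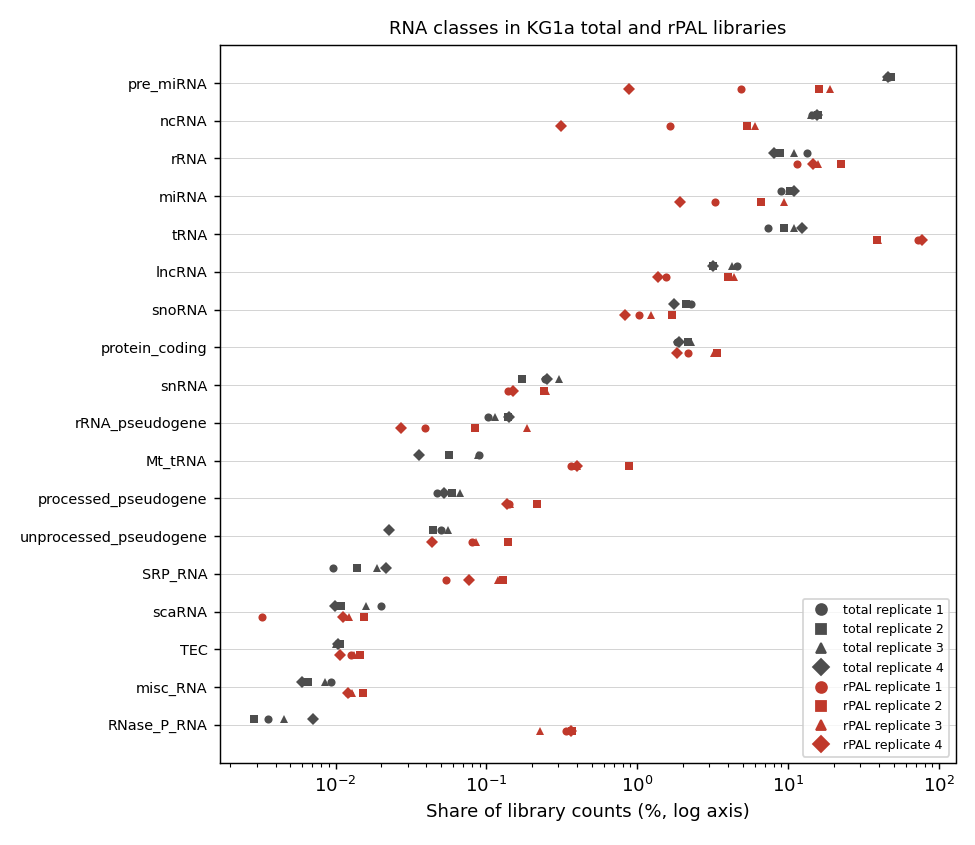
Share of each library's counts (%, log axis) in 18 RNA classes, each point 1 library (4 total, 4 rPAL). tRNA, mitochondrial tRNA, 7SL and RNase P RNA lie higher in all 4 rPAL libraries, and precursor miRNA, unspecified ncRNA and snoRNA lie lower.

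With tRNA left out of the totals, the picture outside tRNA changed for several classes. Ribosomal RNA, the core of the ribosome, took 14.4%, 9.78%, 12.2% and 9.11% of the remaining counts in total RNA and 42.1%, 36.3%, 26.1% and 63.6% in rPAL RNA. Precursor miRNA took 50.3%, 52.8%, 50.03% and 52.4% against 17.8%, 26.1%, 31.4% and 3.81%. Both differences, 30.7 points up and 31.6 points down, had an adjusted exact permutation p of 0.0374 over 17 classes. Unadjusted, both exact permutation tests gave 0.0286, the smallest possible, as precursor miRNA did in the full totals. At that floor the adjusted value depends on how many classes share it, so 0.0374 is not stronger evidence for precursor miRNA. Messenger RNA features rose from 2.28% ± 0.255 to 6.69% ± 1.51 (SD, n = 4), and lncRNA was higher by 2.14 points where it was lower by 0.976 points in the full totals. The miRNA share did not separate the groups, at 11.2% ± 1.11 and 11.7% ± 2.98 (SD, n = 4). In the full totals the rRNA share was 10.3% ± 2.36 and 16.0% ± 4.57 (SD, n = 4), with an adjusted exact permutation p of 0.0857. The leading rRNA feature of each library made 32.9% to 42.0% of rRNA counts in total RNA and 9.37% to 12.1% in rPAL RNA. The leading rRNA feature of total RNA thus held a smaller part of the class in rPAL RNA, and the class did not rise evenly.

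Many rRNA features hold near-identical counts, so the same reads may be counted several times in that share. Of 39 rRNA features with at least 5000 counts, 31 belonged to groups whose log2 counts differed by at most 0.2 in every library, 5.8S genes among them. With 1 feature kept per group, a choice made after seeing the data, the rRNA difference in the full totals was 1.15 points (adjusted exact permutation p = 0.675). As a share of RNAcentral counts alone it was -0.48 points (adjusted exact permutation p = 0.714). As a share of Ensembl counts alone it was 16.2 points (adjusted exact permutation p = 0.0531). RNAcentral entries held 27.0% of the rRNA counts of the 8 libraries. With tRNA left out as well, rRNA took 7.59%, 5.35%, 6.53% and 5.80% in total RNA and 18.4%, 19.6%, 11.1% and 36.3% in rPAL RNA. The groups did not overlap, and the difference was 15.0 points in place of 30.7 (adjusted exact permutation p = 0.0324). The precursor miRNA difference in the same setting was -30.5 points.

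The number of features seen also differed. At an equal depth of 10225549 counts, 24993 ± 1574 features had a count in total RNA and 19617 ± 2631 in rPAL RNA (SD, n = 4; exact permutation p = 0.0286, the smallest possible). With tRNA left out of the totals before thinning, the difference was 695 features in favour of rPAL (exact permutation p = 0.4). The 10 most abundant features took 34.6% ± 2.51 of counts in total and 27.6% ± 1.61 in rPAL RNA (exact permutation p = 0.0286). The most abundant feature alone, a precursor miRNA entry in total RNA and in rPAL replicate 3 and a tRNA entry in rPAL replicates 1, 2 and 4, took 11.9% to 17.0% in total RNA and 7.86%, 4.39%, 4.46% and 11.6% in rPAL RNA.

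Single features were compared with edgeR's quasi-likelihood test on counts scaled by TMM, and a feature is called where its Benjamini-Hochberg adjusted p is under 0.05. Of 6592 features tested, 1236 were called, which is 18.8%, with 586 higher in rPAL (8.89%) and 650 lower (9.86%). Called or not, 1800 features (27.3%) had no overlap between the total and rPAL libraries. That share was 67.2% of tRNA and 66.8% of precursor miRNA entries, so a lack of overlap in a single feature is common. Fold changes are log2 of rPAL over total, and the median over all features was -0.04. Without TMM that median was 0.24 and with RLE factors -0.16, so a class median is to be read against these shifts. DESeq2 called 949 higher and 1693 lower, of 20364 features.

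tRNA and the small RNAs that fell were called in bulk. Of 466 tRNA entries, 250 were higher and 5 lower, with a median of 2.08. Of 220 precursor miRNA entries 1 was higher and 130 lower (median -3.09), of 153 unspecified ncRNA entries 1 was higher and 97 lower (-3.44), and of 301 miRNA features 5 were higher and 127 lower (-2.42). Of 7 7SL entries 6 were higher and 0 lower (2.28), and of 129 processed pseudogenes 42 were higher and 4 lower (1.18). The called shares of tRNA (54.7%), precursor miRNA (59.5%) and ncRNA (64.1%) lay above the 18.8% of all features, and those of snoRNA (13.0%) and protein-coding features (8.24%) below it.

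**Figure D3:**
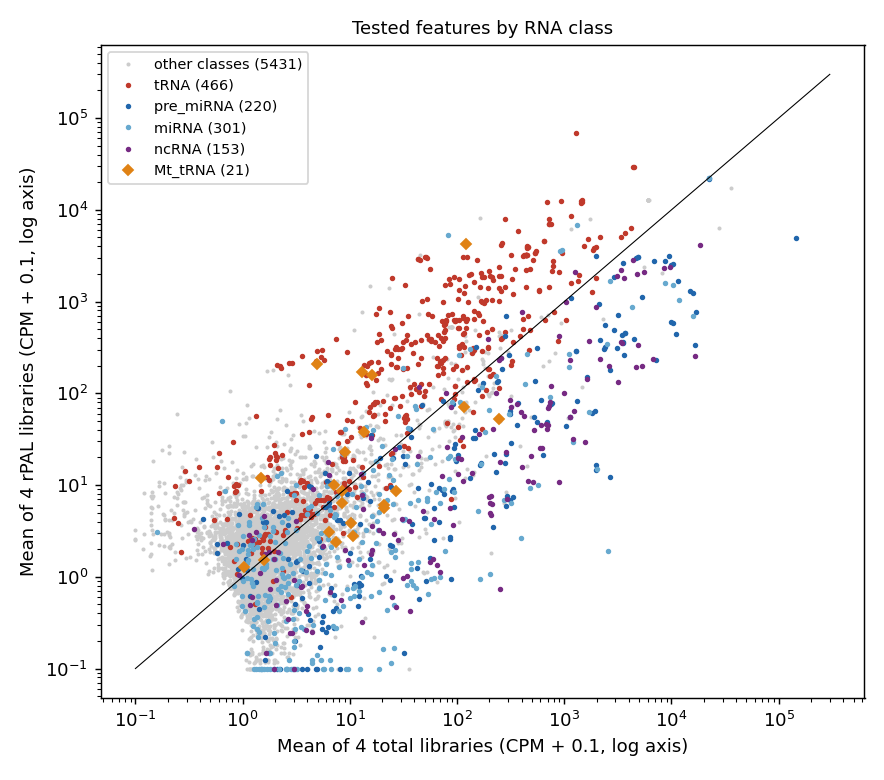
Mean CPM plus 0.1 of each tested feature in the 4 rPAL libraries (vertical, log axis) against the 4 total libraries (horizontal, log axis), coloured by RNA class with the line of equality. Most tRNA entries lie above the line (250 of 466 called higher) and most precursor miRNA entries below it (130 of 220 called lower).

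The classes that did not move as a body had medians near 0 or of unequal parts. Protein-coding features had 183 higher and 151 lower of 4053 (median 0.13, and -0.00 with RLE factors). The balance of its calls turned with the scaling, at 208 higher and 99 lower without TMM and 163 higher and 177 lower with RLE factors. snoRNA had 19 higher and 27 lower of 353 (median -0.10, and 0.16 without TMM), and 25 higher and 17 lower without TMM. lncRNA had 59 higher and 88 lower of 721 (-0.70). Of 44 rRNA features 2 were higher and 0 lower although their median was -1.13, and the 2 that rose were RNAcentral entries (1.97 and 2.21). None of the 40 Ensembl rRNA features was called (0 higher, 0 lower; median -1.14). In the same class the 5.8S gene RNA5-8SN2 lay at 8336, 5228, 6689 and 4117 CPM in total and 9696, 16973, 13108 and 11509 CPM in rPAL RNA. These groups did not overlap, but its log2 fold change of 0.85 (SE 0.47) had an edgeR adjusted p of 0.27. The next 9 rRNA features by abundance were near-identical to it.

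The tRNA rise was spread over many entries, all of them RNAcentral entries without a gene name. The 10 leading entries made 28.1% to 36.6% of tRNA counts in total RNA and 35.6% to 38.8% in rPAL RNA. The most abundant, RNAcentral entry URS0000145C5E, lay at 584, 1342, 1354 and 1867 CPM in total RNA and 78626, 43908, 37908 and 115587 CPM in rPAL RNA. It rose by 5.78 on the log2 scale (SE 0.79, edgeR adjusted p = 0.00072). It was highest in rPAL replicates 4 and 1, and every rPAL library exceeded every total library by a wide margin. Over all tRNA entries the log2 fold change ran from -3.80 to 6.59, with 401 of 466 above 0, 139 above 3 and 32 above 5. Of the 85 entries with a mean of at least 1000 CPM, 68 were higher and 0 lower, and of the 381 below that mean 182 were higher. The leading tRNA entry of each library, which was not the same one in total and rPAL RNA, made 4.24% to 6.47% of the class in total and 9.58% to 15.0% in rPAL RNA.

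The 5 tRNA entries that fell were all scarce next to these. The one with the highest mean in total RNA, URS0000EC1E9B, lay at 130, 171, 146 and 231 CPM in total and 37.3, 46.6, 43.7 and 34.3 CPM in rPAL RNA. Its log2 fold change was -2.27 (SE 0.44, edgeR adjusted p = 0.0039), with no overlap between the groups. Entries of 1 class can hold the same reads. Of 301 tRNA entries with at least 5000 counts over the 8 libraries, 86 belonged to groups whose log2 counts differed by at most 0.2 in every library. With 1 entry kept per such group, a choice made after seeing the data, 211 tRNA entries were higher and 5 lower.

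Precursor, mature and unspecified entries overlapped in the same way, in 7 groups that mixed ncRNA with precursor entries and 2 that mixed precursor with mature entries. The most abundant precursor entry, URS000230F82E, fell from 170215, 157852, 135811 and 119177 CPM to 1202, 10338, 7979 and 192 CPM. Its log2 fold change was -5.42 (SE 0.97, edgeR adjusted p = 0.0028). It made 25.9% to 36.5% of precursor counts in total RNA, and rPAL replicate 4 held the least of it. The most abundant mature miRNA entry, URS00003768C5, lay at 20038, 22511, 20822 and 26439 CPM in total RNA and 10980, 30729, 44333 and 1826 CPM in rPAL RNA. Replicates 2 and 3 lay above every total library and replicates 1 and 4 below, and its fold change of -0.49 (SE 0.66) was not called (edgeR adjusted p = 0.7). Its counts are near-identical to those of URS0000BA0A78, the second most abundant precursor entry, which was not called either (-0.49), so the same reads may stand in both classes.

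That entry made 20.7% to 24.3% of miRNA counts in total RNA and 33.5%, 46.6% and 47.4% in rPAL replicates 1 to 3. In rPAL replicate 4 the leading miRNA feature was MIR7977, with 51.1% of the class. The 10 leading miRNA features together made 81.5% to 83.01% in total RNA against 88.9% to 97.5% in rPAL RNA. Features of the class with a count numbered 818 to 847 in total RNA and 275, 373, 495 and 231 in rPAL RNA. These rPAL libraries also held fewer counts of the class, and its entries were not compared at equal depth. One unnamed miRNA entry, URS000075A1F7, was higher, at 454, 1375, 1599 and 1845 CPM in total and 6156, 6884, 8063 and 5938 CPM in rPAL RNA (2.19, SE 0.52, edgeR adjusted p = 0.011). It was near level over the 4 rPAL libraries, unlike the class it belongs to.

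Over the 8 libraries together, named miRNA genes held only a small part of the class, since 95.8% of miRNA counts lay on RNAcentral entries. This did not hold in rPAL replicate 4, where MIR7977 alone made 51.1% of the class. A miRNA guides Argonaute proteins to mRNAs through its seed, bases 2 to 8. Of 40 tested miRNA features with a symbol 39 matched RefSeq (GRCh38.p14), and all 9 that were called matched. The 9 genes give 15 mature miRNAs with 15 distinct seeds, so no seed is shared among them. For the gene that rose and 4 that fell, 1 mature miRNA each is shown with the seed in capitals, 5′ to 3′. The counts are of the gene, and where its hairpin gives 2 arms they do not say which arm was read.
hsa-miR-7977: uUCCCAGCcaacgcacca
hsa-let-7g-5p: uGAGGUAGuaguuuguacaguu
hsa-miR-29a-3p: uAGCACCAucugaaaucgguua
hsa-miR-326: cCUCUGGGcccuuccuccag
hsa-miR-15b-5p: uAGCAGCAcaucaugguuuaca

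MIR7977 (chromosome 3, 176515103 to 176515151, plus strand, GRCh38) lay at 62.5, 89.8, 95.5 and 78.7 CPM in total and 2966, 4772, 3804 and 9798 CPM in rPAL RNA. It rose by 6.04 on the log2 scale (SE 0.73, edgeR adjusted p = 0.00036), and rPAL replicate 4 was highest. The mature sequence ends in cca, the letters that also end mature tRNAs, and tRNA rose in the same libraries; whether tRNA reads were counted on this gene was not tested.

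Of named miRNA genes 8 fell, among them MIR15B (-5.08). MIRLET7G, a let-7 gene whose family restrains growth and stem cell programmes, lay at 2.03, 2.14, 1.88 and 2.27 CPM in total RNA and had 0 counts in all 4 rPAL libraries. Set against a floor of 3 counts over the group, it was at least 34.6-fold lower. On the same floor MIR326 was at least 49.98-fold lower, MIR29A at least 26.4-fold and MIR5582 at least 22.6-fold. MIRLET7G was the single tested let-7 gene and MIR29A the single tested gene of the blood cell miRNA list, which named 31 genes of which 9 had a count. No member of the miR-17-92 list was tested.

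Mitochondrial tRNAs were called in both directions. The organelle encodes its own set, 1 tRNA for most amino acids, cut out of long transcripts of both strands in which tRNAs sit between mRNAs and rRNAs. Of 22 genes 21 were tested, and 5 rose, 5 fell and 11 were not called. Their called share was 47.6%, beside 18.8% of all features. The class median was -0.49, although the summed level was higher in every rPAL library. Sequences of the 5 that rose and of 3 that fell are shown as the gene reads, 5′ to 3′, in lower case (GENCODE 29, GRCh38); MT-TA, MT-TN, MT-TC and MT-TY are neighbours on the minus strand.
MT-TV: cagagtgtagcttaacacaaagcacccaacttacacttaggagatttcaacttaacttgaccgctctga
MT-TC: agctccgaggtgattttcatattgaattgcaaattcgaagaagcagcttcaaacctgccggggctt
MT-TH: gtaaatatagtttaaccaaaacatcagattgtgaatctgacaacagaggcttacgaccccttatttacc
MT-TI: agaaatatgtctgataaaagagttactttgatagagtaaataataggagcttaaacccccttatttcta
MT-TG: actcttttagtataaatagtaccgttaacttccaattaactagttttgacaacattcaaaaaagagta
MT-TN: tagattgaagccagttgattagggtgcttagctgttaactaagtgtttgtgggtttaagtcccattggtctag
MT-TA: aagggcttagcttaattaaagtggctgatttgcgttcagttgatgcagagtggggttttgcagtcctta
MT-TY: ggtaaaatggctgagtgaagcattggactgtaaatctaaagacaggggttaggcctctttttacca

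MT-TV, the valine tRNA between the mitochondrial rRNA genes (chromosome M, 1602 to 1670, plus strand), lay at 125, 116, 143 and 104 CPM in total RNA and 3072, 7368, 3345 and 3344 CPM in rPAL RNA. It rose by 4.88 on the log2 scale (SE 0.51, edgeR adjusted p = 0.00028), and replicate 2 was highest. Its share of mitochondrial tRNA counts went from 14.0%, 20.4%, 16.4% and 29.2% to 84.1%, 84.2%, 84.7% and 84.1%. That share was near constant over the 4 rPAL libraries, which differed widely in tRNA and precursor miRNA.

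Genes near the cysteine tRNA were called in the opposite direction. MT-TC (5761 to 5826, minus strand) lay at 3.99, 4.44, 7.35 and 3.44 CPM in total and 123, 311, 146 and 263 CPM in rPAL RNA (5.32, SE 0.61, edgeR adjusted p = 0.00033). MT-TN, the asparagine tRNA (5657 to 5729, minus strand), lay at 332, 235, 348 and 74.6 CPM in total and 17.9, 103, 46.9 and 41.7 CPM in rPAL RNA (-2.54, SE 0.62, edgeR adjusted p = 0.013). The MT-TN groups overlapped, since rPAL replicate 2 exceeded total replicate 4. MT-TA, the alanine tRNA (5587 to 5655, minus strand), fell by 2.37 on the log2 scale (SE 0.58, edgeR adjusted p = 0.013), from 6.97 to 17.8 CPM to 1.16 to 4.68 CPM without overlap. MT-TY, the tyrosine tRNA (5826 to 5891, minus strand), fell by 2.06 (SE 0.64, edgeR adjusted p = 0.041). MT-TN made 20.9% to 41.3% of mitochondrial tRNA counts in total RNA and 0.490% to 1.19% in rPAL RNA.

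The other 3 that rose were MT-TH (histidine), MT-TI (isoleucine) and MT-TG (glycine), all on the plus strand. MT-TH (12138 to 12206) went from 19.1, 7.48, 16.3 and 8.48 CPM to 118, 338, 145 and 85.9 CPM (3.38, SE 0.55). MT-TI (4263 to 4331) went from 20.7, 12.8, 21.6 and 8.82 CPM to 155, 297, 94.0 and 94.6 CPM (3.04, SE 0.54). MT-TG (9991 to 10058) went from 0.942, 1.48, 2.45 and 0.672 CPM to 9.43, 23.0, 6.94 and 7.79 CPM (2.83, SE 0.62). None of the 3 overlapped between groups, which also held for 27.3% of all features tested. Their edgeR adjusted p-values were 0.0016, 0.0025 and 0.0068. MT-TF (phenylalanine, -2.08) and MT-TL2 (leucine, -2.06) were the other falls, with edgeR adjusted p-values of 0.041 and 0.029.

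The rises held under every scaling, while the falls did not. Without TMM, 5 mitochondrial tRNAs were higher and 1 lower (MT-TN), with RLE factors 5 were higher and 6 lower, and with the replicate number as a block 5 were higher and 1 lower. The 5 that rose were 66 to 69 bases long with a median GC content of 36.2% (26.5% to 45.5%). The 5 that fell were 66 to 73 bases long with a median of 41.1% (35.2% to 43.5%), and the 11 that were not called spanned 23.1% to 49.3%. These ranges overlap throughout. Nuclear copies of mitochondrial genes can hold the same reads, so the values are of the gene as counted.

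**Figure D4:**
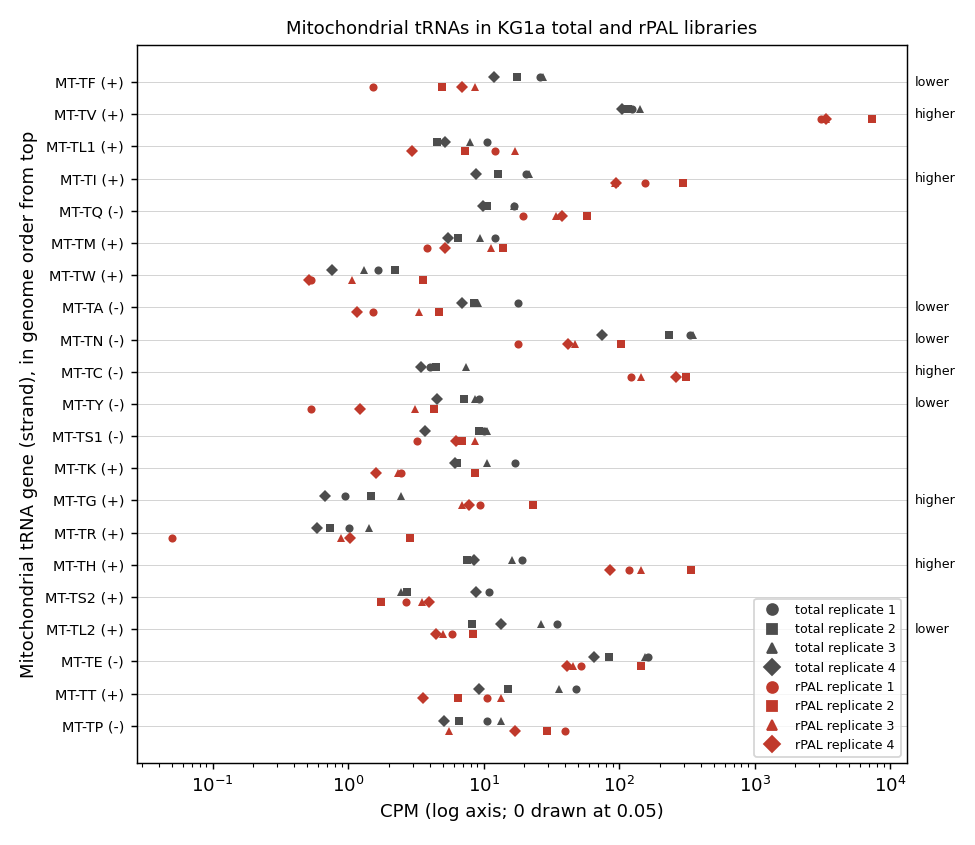
CPM (log axis, 0 drawn at 0.05) of the tested mitochondrial tRNAs in each of the 8 libraries, listed in genome order with their strand. MT-TV (3072 to 7368 CPM in rPAL) and MT-TC lie above all their total libraries. MT-TA lies below all of its own, and MT-TN below except that rPAL replicate 2 (103 CPM) exceeds total replicate 4 (74.6 CPM).

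Of 13 mitochondrial mRNAs 2 were higher and 0 lower (median 0.16), and of 2 rRNA genes 0 were higher and 1 lower (median -2.34). The called share of the mRNAs, 15.4%, is near the 18.8% of all features. MT-CO1, a subunit of cytochrome c oxidase, lay at 141, 118, 133 and 77.6 CPM in total and 529, 537, 348 and 251 CPM in rPAL RNA (1.59, edgeR adjusted p = 0.026). MT-ATP8, a subunit of ATP synthase, rose by 2.39 (edgeR adjusted p = 0.0043). The small rRNA MT-RNR1 fell, from 13.1, 17.2, 19.6 and 16.0 CPM to 0.0761, 9.27, 1.96 and 0.386 CPM (-3.04, edgeR adjusted p = 0.046), with rPAL replicate 2 far above the other rPAL libraries. MT-RNR1 and MT-TV lie side by side on the plus strand (648 to 1601 and 1602 to 1670) and were called in opposite directions.

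Spliceosomal snRNAs are the RNA parts of the splicing machinery. Of 8 named genes tested 0 were higher, 5 lower and 3 not called (median -2.32), so 62.5% were called beside 18.8% of all features. Without TMM 3 were lower, and with the replicate number as a block 4. The pair of U4 genes differs by 4 bases of 141 when laid side by side without gaps, so reads may be split between them.
RNU4-2: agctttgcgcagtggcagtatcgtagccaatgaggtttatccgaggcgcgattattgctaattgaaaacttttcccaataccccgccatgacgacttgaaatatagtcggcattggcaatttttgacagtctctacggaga
RNU4-1: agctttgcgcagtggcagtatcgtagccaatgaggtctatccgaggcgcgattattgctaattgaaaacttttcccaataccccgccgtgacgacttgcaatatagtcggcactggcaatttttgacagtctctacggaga
RNU4-2 lay at 683, 148, 592 and 524 CPM in total and 42.4, 81.3, 57.0 and 41.1 CPM in rPAL RNA (-3.41, SE 0.57, edgeR adjusted p = 0.0019). RNU4-1 lay at 80.0, 54.4, 127 and 121 CPM in total and 29.1, 39.5, 41.9 and 24.5 CPM in rPAL RNA (-1.74, edgeR adjusted p = 0.018). Neither gene overlapped between the groups. RNU5B-1, a U5 gene, fell by 2.59 (edgeR adjusted p = 0.017), and RNU5D-1, at 2.35 to 3.96 CPM in total RNA, had 0 counts in rPAL RNA and was at least 51.0-fold lower. Of the 12 unnamed snRNA entries 1 was higher and 0 lower, with a median of 0.43, against 0 higher and 6 lower of 17 Ensembl snRNA features (median -1.74). Whether named genes and unnamed entries of 1 class differ was not tested.

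Small nucleolar RNAs guide the modification of rRNA, C/D box RNAs 2'-O-methylation and H/ACA box RNAs pseudouridylation. Of 21 named H/ACA genes 6 were higher and 1 lower (median 0.99), and of 13 C/D genes 1 was higher and 3 lower (median -0.03). The called shares were 33.3% for H/ACA and 30.8% for C/D genes, beside 18.8% of all features. Without TMM the C/D genes had 3 higher and 2 lower, so their balance turned with the scaling. The H/ACA genes had 4 higher and 1 lower with RLE factors or DESeq2, 7 and 1 without TMM, and 1 and 1 with the replicate number as a block. Whether the families differ was not tested. The C/D gene with the largest fall among well-counted features is shown 5′ to 3′ (GENCODE 29, GRCh38).
SNORD14E: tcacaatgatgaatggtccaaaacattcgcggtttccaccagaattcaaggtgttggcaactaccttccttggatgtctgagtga
SNORD14E (chromosome 11, 123058077 to 123058161, minus strand, inside HSPA8) lay at 105, 135, 158 and 101 CPM in total and 11.6, 14.0, 27.6 and 6.12 CPM in rPAL RNA (-3.38, SE 0.50, edgeR adjusted p = 0.001). Its host HSPA8, a heat shock chaperone, had a log2 fold change of -0.95 (edgeR adjusted p = 0.22).

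Among H/ACA genes SNORA73B rose from 4.57, 5.84, 7.54 and 5.21 CPM to 36.1, 31.3, 33.9 and 53.2 CPM (2.68, edgeR adjusted p = 0.0049). SNORA49 fell from 3.37 to 6.38 CPM to 0 to 0.456 CPM (-4.49, edgeR adjusted p = 0.0052). Of the unnamed snoRNA entries the most abundant fell from 8051, 8614, 8255 and 7405 CPM to 876, 3504, 2917 and 809 CPM (-2.38, edgeR adjusted p = 0.0053). Over 304 RNAcentral snoRNA entries 12 were higher and 23 lower (median -0.20), and over 49 Ensembl snoRNA features 7 were higher and 4 lower (0.71). Of 4 Cajal body scaRNA genes, which guide modification of snRNAs, 2 fell, among them SCARNA6 (-4.04, edgeR adjusted p = 0.0019).

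Y RNAs bind Ro protein and have been a test case of glycoRNA. Of 3 Y RNA genes 0 were called, beside 18.8% of all features. RNY1 lay at 66.1, 42.5, 57.1 and 35.5 CPM in total and 96.4, 103, 92.3 and 80.8 CPM in rPAL RNA. The groups did not overlap, and the log2 fold change of 0.69 had an edgeR adjusted p of 0.36. The vault RNA VTRNA1-3 rose from 0.435, 0.575, 1.70 and 0.672 CPM to 6.92, 4.22, 5.38 and 3.80 CPM (2.44, edgeR adjusted p = 0.029). The named 7SL gene RN7SL1 was not called, at 2.63 to 3.96 CPM in total and 0.532 to 5.86 CPM in rPAL RNA (-0.30, edgeR adjusted p = 0.87), while the most abundant unnamed 7SL entry rose by 2.59.

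Among long genes the largest rises were at a few loci, among features with a symbol whose groups did not overlap and whose mean reached 50 CPM. AL355075.4 (chromosome 14, 20343048 to 20343685, minus strand), an annotated lncRNA that holds the RNase P gene RPPH1 on the same strand, went from 1.74, 0.986, 1.98 and 2.52 CPM to 136, 218, 106 and 249 CPM (6.51, SE 0.69, edgeR adjusted p = 0.00031). LINC01766 went from 185, 123, 140 and 203 CPM to 3141, 11294, 14877 and 3472 CPM (5.26, SE 0.61, edgeR adjusted p = 0.00033). F11-AS1 had the largest value of these, from 0.362 to 1.18 CPM to 47.8 to 194 CPM (7.23). Replicates 2 and 3 were the highest for LINC01766, and replicates 1 and 4 for F11-AS1.

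LINC01780 and ZDHHC3, a palmitoyltransferase gene on another chromosome, kept a near fixed ratio in rPAL RNA. LINC01780 lay at 479, 1184, 3783 and 416 CPM and ZDHHC3 at 252, 621, 1958 and 218 CPM, a mean log2 ratio of 0.94 with an SD of 0.0098 (n = 4). Their rises were 6.17 and 5.47. HP, which encodes the plasma protein haptoglobin, rose from 16.1 to 28.5 CPM to 500, 1453, 3086 and 611 CPM (5.54), also highest in replicates 2 and 3. ROBO2, an axon guidance receptor gene that holds a U6 copy on the same strand, rose by 5.29. Whether these loci share reads was not tested.

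Falls at long genes included some loci that hold a small RNA. VMP1, an autophagy gene that holds MIR21, fell from 123, 237, 216 and 163 CPM to 11.7, 16.1, 52.7 and 2.32 CPM (-3.56, edgeR adjusted p = 0.0046). CDK6, a cell cycle kinase gene with a nested U6 copy, had a log2 fold change of -3.60, and MBNL1, a splicing regulator gene with a nested small RNA, one of -3.92. Others hold none in the annotation used. PKM, which encodes the glycolytic enzyme pyruvate kinase, fell by 3.54, from 60.1, 107, 172 and 136 CPM to between 7.92 and 17.0 CPM. EXOC6B had the largest fall, from 20.2, 203, 203 and 412 CPM to 0, 2.11, 4.69 and 0 CPM (-7.44, edgeR adjusted p = 0.0045). ERVFRD-1, the gene of an endogenous retroviral envelope protein, had a log2 fold change of -5.92, NFE4 of -5.496, ZIM2 of -5.01, SLC32A1 of -4.73 and C8orf37-AS1 of -3.02. All 24 features of this rule, chosen on the same libraries, were called in every alternative fit that tested them.

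Of 74 ribosomal protein mRNAs tested, 11 were higher, 2 lower and 61 not called. The called share of 17.6% is near the 18.8% of all features, and the median was 1.03 beside -0.04 for all features. With the replicate number as a block 4 were higher and 0 lower. RPL11 lay at 2.46, 3.70, 2.45 and 2.35 CPM in total and 24.6, 53.7, 24.1 and 24.1 CPM in rPAL RNA (3.27, edgeR adjusted p = 0.0014). RPS25 rose by 4.39 (edgeR adjusted p = 0.0028) and RPL13 by 1.92 (edgeR adjusted p = 0.044). The 2 that fell were RPL7A (-1.73) and RPS13 (-1.77), and without TMM neither was called. Of 12 translation and heat shock mRNAs (16.7% called) 2 were higher and 0 lower, EEF2 (2.51), the elongation factor, and TPT1 (2.58).

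Histone mRNAs lack a poly(A) tail when they are replication-dependent. Of 61 tested 3 were higher, 5 lower and 53 not called (median -0.75), so 13.1% were called beside 18.8% of all features. Without TMM 4 were higher and 1 lower. The linker histone genes HIST1H1E and HIST1H1D rose, HIST1H1E from 58.6, 11.7, 16.9 and 14.7 CPM to 122, 749, 185 and 730 CPM (3.98, edgeR adjusted p = 0.0072) and HIST1H1D by 2.94. H2AFY, which encodes the macroH2A variant, rose by 3.44. HIST1H3G fell from 14.4, 18.5, 31.4 and 19.3 CPM to 0, 0.643, 1.96 and 0.386 CPM (-5.14, edgeR adjusted p = 0.003). Histone H3 genes are near copies of each other, so the gene to which their reads belong is uncertain.

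Of 21 genes that host snoRNAs 18 were not called, and the called share was 14.3% beside 18.8% of all features. The calls were 2 higher, SNHG21 (3.03) and SNHG8 (1.67), and 1 lower, ZFAS1, which went from 19.7, 11.4, 13.5 and 10.1 CPM to 0, 0.551, 0.489 and 0 CPM (-6.18, edgeR adjusted p = 0.0016). Of the nuclear lncRNA list 2 were tested and 0 called. The most abundant lncRNA, an Ensembl gene without a symbol, fell from 38495, 21541, 31325 and 19270 CPM to 2025, 11224, 10988 and 1237 CPM (-2.59, edgeR adjusted p = 0.015). It made 60.3% to 84.2% of lncRNA counts in total RNA.

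In CPM, the split of the rPAL libraries ran through most classes. Of 6592 features, 2256 (34.2%) had rPAL replicates 1 and 4 both below replicates 2 and 3, and 574 (8.71%) had both above. Both lay below in 39 of 44 rRNA features, 166 of 220 precursor miRNA entries, 114 of 153 unspecified ncRNA entries and 170 of 301 miRNA features, with 0, 4, 0 and 0 features of these classes in the opposite order. tRNA was turned over, with 29 of 466 entries below and 257 above. Mitochondrial tRNA had 8 of 21 below and 0 above. These are counts of an order seen in the data, and no test was made on them. CPM is set against totals of which tRNA took 72.9% and 77.0% in replicates 1 and 4. In replicates 2 and 3 tRNA took 38.7% and 39.6%. Outside tRNA, the rRNA share was 42.1%, 36.3%, 26.1% and 63.6% in rPAL replicates 1 to 4, highest in 1 and 4. The protein-coding share was 8.03%, 5.46%, 5.30% and 7.96%, also highest there. The precursor miRNA share was lowest there, at 17.8%, 26.1%, 31.4% and 3.81%. Near-identical features are counted separately here. Of 39 rRNA features with at least 5000 counts, 31 were in near-identical groups, which left 14 distinct ones. The same held for 26 of 98 precursor miRNA, 9 of 80 unspecified ncRNA, 4 of 43 miRNA and 86 of 301 tRNA entries.

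Each library's distance from the mean of total RNA showed the same by class, as the median over features of log2[(CPM + 1)/(mean total CPM + 1)]. For precursor miRNA it was -2.68, -1.63, -1.59 and -4.12 in rPAL replicates 1 to 4, and for unspecified ncRNA -2.97, -1.90, -1.82 and -4.64. For miRNA it was -1.76, -1.22, -0.85 and -2.30. All 4 libraries lay below total RNA in these classes, and replicates 1 and 4 lay farther. For tRNA it was 2.41, 1.497, 1.68 and 1.97, above total RNA in all 4. For rRNA it was -1.95, -0.62, 0.56 and -2.61, so the libraries did not share a sign. These medians rest on the same CPM, so each library's tRNA share enters them.

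**Figure D5:**
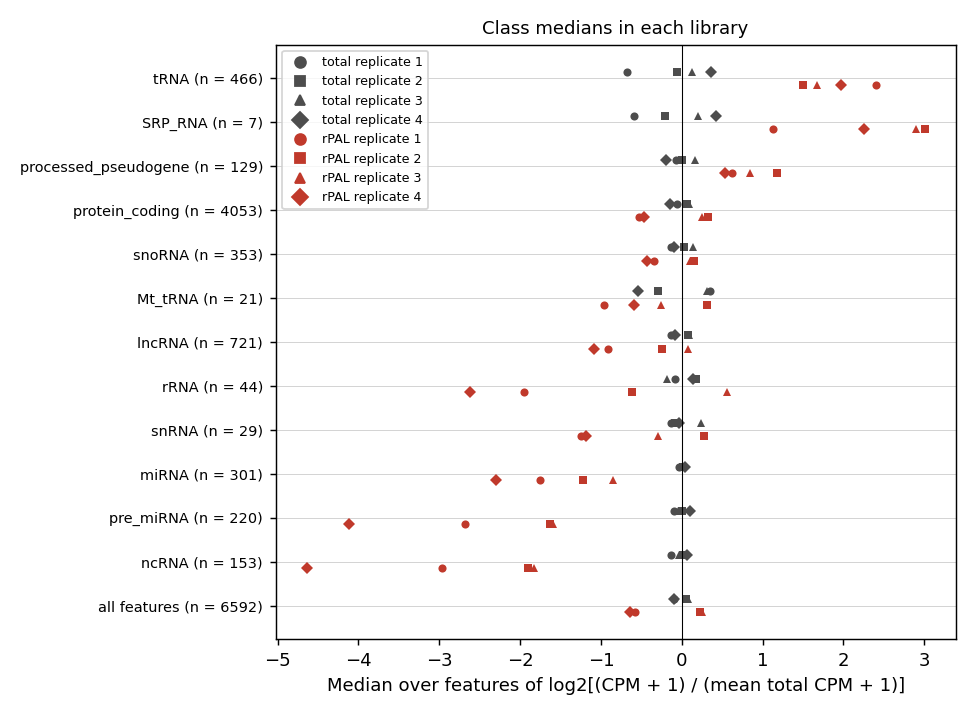
Median over the tested features of each class of log2[(CPM + 1)/(mean total CPM + 1)] in each library, 1 point per library. tRNA lies above 0 in all 4 rPAL libraries (1.497 to 2.41) and precursor miRNA below 0 (-4.12 to -1.59), while rRNA spans -2.61 to 0.56.

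Fits without 1 pair show which calls rest on it. With rPAL replicates 1 and 4 left out, 222 tRNA entries were higher and 19 lower, and 150 precursor miRNA entries were lower. With replicates 2 and 3 left out, 307 tRNA entries were higher and 9 lower, and 185 precursor entries were lower. The directions of tRNA and precursor miRNA did not rest on either pair. rRNA did, with 28 features lower when replicates 2 and 3 were left out and 1 when replicates 1 and 4 were, against 0 with all libraries. Near-identical rRNA features are counted separately in these numbers. All 5 mitochondrial tRNAs that rose stayed called in both fits. In all, 2511 and 3778 features were called with 1 pair left out, more than the 1236 with all 8 libraries. The pairs were named by their likeness in these data, so each such fit keeps rPAL libraries that vary less. Of the 1236, 1175 and 1202 were kept and 0 changed sign. Those features were called with the same libraries, so this is not independent support.

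Some calls of genes printed above were lost under other settings. RNU5B-1, MT-RNR1, MT-TA, MT-TF, MT-TY, MT-TL2, RPL7A and RPS13, all lower in rPAL RNA, were not called without TMM. RPL13 was not called with RLE factors, and MT-CO1, SNHG8 and RPL13 were not called with DESeq2. With the replicate number as a block, 35 of the 91 called named features were lost. Among them were MT-TA, MT-TF, MT-TY, MT-TL2, RPL7A, RPS13 and VTRNA1-3. With that block 0 rRNA features were called higher, against 2 in the main fit. At least 1 fit with a single library left out lost MT-RNR1, MT-TA, MT-TF, MT-TY, MT-TL2, RNU4-1, VTRNA1-3, RPL7A, RPS13, RPL13, MT-CO1 and SNHG8. MT-TV, MT-TC, MT-TH, MT-TI, MT-TN, MIR7977, RNU4-2 and SNORD14E were called in every alternative that tested them.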

How the data were processed

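Small RNA libraries of KG1a cells, 4 total and 4 rPAL, were grouped by title. The authors deposited a table of raw read counts per feature with its RNA class; the aligner was Bowtie2 and the build GRCh38 (hg38), as the submitters' processing notes list them. The version, the counting program, the annotation release, the strand setting and the treatment of reads with several hits are not given in the sources used here. All 38 columns matched a labelled library, and the 30 other libraries were not used. Symbols and coordinates are from GENCODE 29 (GRCh38), which gave a symbol to 57355 of 90127 features. miRNA sequences are RefSeq's.

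Features passing filterByExpr were fitted with edgeR 4.0.16 (R 4.3.3; TMM, robust quasi-likelihood test, Benjamini-Hochberg over all features tested), tested on simulated data beforehand. CPM is per library total, and fold changes are after TMM, so their ratios differ. Class shares and detected features used exact permutation tests (Python 3.11.15, scipy 1.17.1, pandas 2.3.3), two-sided. Near-identical features have log2 counts within 0.2 of each other in every library. Replicate pairs differed beyond sampling noise, so all 8 libraries were kept. Alternatives were DESeq2 1.42.0, RLE factors, no TMM, other filters, subsets of features, leaving out libraries and a replicate block.

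The comparison, the members, the gene lists and the naming rule were chosen with earlier results of these data known. Named genes are the 12 largest and 12 smallest fold changes among called features with a symbol, 50 CPM or more on average and groups that do not overlap, abundant features of each class, and members of the lists, of which the text gives a part. The RNAcentral entries URS000075A1F7 and URS0000EC1E9B, the rRNA entries that rose, and which list members are printed were chosen after their values were seen. Where a group has 0 counts, the fold is set against 3 counts over that group, and it covers counting error only. The C/D box gene that was higher is not reported here by name. Figures were drawn with matplotlib 3.10.9.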

Additional observations from a re-analysis of the deposited data

Results flagged for a closer look

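For class shares, library measures, mitochondrial tRNAs, the named features of the rule and further genes of the text, the gap of the highest or lowest library to the nearest other was divided by the range of its group of 4. In 16 of 242 groups (6.61%) it exceeded Dixon's 95% critical value for 4 libraries, and chance flags about 1 in 20. Of the 16, 8 lay in rPAL replicate 2, always as the highest. It held 0.875% of counts on mitochondrial tRNA beside 0.365% to 0.397% in the other rPAL libraries, and 0.217% on processed pseudogenes beside 0.136% to 0.143%. MT-TV was at 7368 CPM there (others 3072 to 3345), MT-TE at 145 CPM (41.1 to 52.6), MT-TG at 23.0 CPM (6.94 to 9.43) and MT-TK at 8.63 CPM (1.61 to 2.43). RPL11 was at 53.7 CPM (24.1 to 24.6) and TPT1 at 66.7 CPM (24.3 to 28.98). The groups are not independent. MT-TV made 84.2% of the mitochondrial tRNA counts of rPAL replicate 2, and MT-TE, MT-TG and MT-TK belong to the same class.

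Total replicate 1 stood apart for 4 features, of which 1 was high, HIST1H1E at 58.6 CPM (others 11.7 to 16.9). The other 3 were low there, RF00002 at 101 CPM (253 to 269), RNA5-8SP2 at 91.7 CPM (238 to 254) and SCARNA11 at 12.5 CPM (21.2 to 21.6). Total replicate 2 was highest for RPL11 at 3.70 CPM (2.35 to 2.46), H2AFY at 3.78 CPM (3.44 to 3.49) and AC002350.1 at 1.97 CPM (1.16 to 1.23). Total replicate 4 was highest for HIST1H1D at 6.30 CPM (3.95 to 4.06).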

How the results depend on the processing

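The count of 1236 called features became 2642 with DESeq2, 521 with Ensembl features alone, 760 with RNAcentral entries alone, 711 at 10 CPM or more in 4 libraries, 2511 without rPAL replicates 1 and 4, 3778 without rPAL replicates 2 and 3, and 915 to 1926 with 1 library left out (1926 without rPAL replicate 3). Without TMM 640 were higher and 484 lower, and 0 of the 1236 changed sign in any alternative, all of which use the same libraries or a part of them. With tRNA left out of totals, the difference in detected features turned from -5376 to 695 (exact p = 0.4), the rRNA share reached 30.7 points, precursor miRNA -31.6 points and the RNAcentral share -37.0 points (from -7.14; exact p = 0.0286), and the lncRNA and snRNA shares turned to 2.14 and 0.22 points. The RNAcentral share differed by -1.31 points with rRNA left out (exact p = 0.486) and by -3.63 points with 1 entry per near-identical group (exact p = 0.286), where the rRNA share differed by 1.15 points. With tRNA left out and 1 entry per near-identical group, an alternative chosen after seeing the data, differences were 15.0 points for rRNA, -30.5 for precursor miRNA, 5.02 for lncRNA, 2.69 for snoRNA, 0.37 for snRNA and 0.14 for rRNA pseudogenes. At 5 or more expected counts the detected features differed by -585 (exact p = 0.571). Leaving out 1 library at a time gave differences of -6407 to -4331 detected features, 40.4 to 53.2 points for tRNA, -39.0 to -33.0 for precursor miRNA, 3.68 to 7.31 for rRNA and -8.96 to -4.98 for RNAcentral entries. SNORD15A (log2 fold change 0.20, not called) was at -6.09 without rPAL replicates 1 and 4. The causes of these changes were not tested.

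The labels do not say whether replicate numbers pair the libraries. Deviations of libraries with the same number correlated at -0.15, -0.01, -0.06 and 0.01, and those with other numbers at -0.0997 to 0.139. These values cannot decide whether the numbers pair, because the rPAL deviations also hold the split of the rPAL libraries. With the replicate number as a block 1036 features were called (407 higher, 629 lower), and the difference in detected features, -5376, had a paired exact p of 0.125, the smallest that 4 pairs allow. Of 91 named features that were called, 54 were called in every fit with 1 library left out, 44 in every alternative, and 35 were lost with the block. Depth limits features near 0 in rPAL RNA to the folds given against the floor.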
